A study of Mus musculus with 15 samples.

Results

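The genes described here are the 10 that encode the follistatins, the subunits of activin and inhibin, and their receptors: Fst, Fstl3, Inha, Inhba, Inhbb, Acvr1b, Acvr1c, Acvr2a, Acvr2b and Tgfbr3. They were taken by gene symbol from a count of reads over 24490 mouse genes, each symbol matched 1 row, and all 10 were among the 14907 genes abundant enough to be tested. RNA came from primary granulosa cells, the somatic cells that surround the oocyte, of 8-week-old female RjOrl:SWISS mice. The cultured cells had been transfected with 30 pmol of a non-targeting scrambled siRNA, of siRNAs against Foxl2 or of siRNAs against Esr2, with the reagent Lipofectamine RNAiMax in every group. The 15 libraries formed 5 groups of 3, namely scrambled siRNA and Foxl2 siRNA, each harvested 30 h or 54 h after transfection, and Esr2 siRNA, harvested at 30 h only. Each transfection against a target used a pool of 3 siRNAs. The labels give identical catalogue numbers for the Foxl2 and the Esr2 pools, do not tie pools to libraries, name only 30 h as the time of extraction (54 h stands in the sample titles), and leave unsaid whether replicate libraries are separate cultures. FOXL2 is a forkhead transcription factor that maintains granulosa cell identity, and ESR2 is oestrogen receptor beta. The study asked which genes depend on these factors.

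Activins are dimers of the beta subunits encoded by Inhba and Inhbb, and inhibins pair 1 of the same beta subunits with the alpha subunit encoded by Inha. Activin binds a type II receptor (Acvr2a or Acvr2b), which recruits and activates a type I receptor (Acvr1b, also called ALK4, or Acvr1c, also called ALK7), and the signal reaches the nucleus through SMAD2 and SMAD3. Follistatin (Fst) and the related Fstl3 bind activin and keep it from its receptors, while inhibin, with the co-receptor betaglycan (Tgfbr3), competes for the type II receptor. Granulosa cells are the main source of circulating inhibin in females, which lowers the release of follicle-stimulating hormone by the pituitary, whereas activin raises it.

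Libraries held 45 to 59.6 M gene counts. Foxl2 itself stood at 143 to 174 counts-per-million (CPM) with scrambled siRNA at 30 h and at 28.4 to 65.4 CPM after Foxl2 siRNA. At 54 h it stood at 154 to 189 and at 25.2 to 57.5 CPM. Within the Foxl2 siRNA groups, most Foxl2 remained in replicate 3 at 30 h and in replicate 2 at 54 h. At 30 h Esr2 stood at 60.4 to 61.6 CPM with scrambled siRNA and at 12.9 to 14.5 CPM after Esr2 siRNA. Foxl2 was at 112 to 128 CPM after Esr2 siRNA, below the scrambled range, but did not pass (log2 -0.41 ± 0.29, edgeR adjusted p = 0.539). After Foxl2 siRNA at 30 h Esr2 was at 25.0 to 45.5 CPM, also below the scrambled range without passing (log2 -0.87 ± 0.34, edgeR adjusted p = 0.109). Esr2 was lower after Foxl2 siRNA at 54 h, at 15.7 to 49.3 CPM against 64.9 to 74.2 CPM (log2 -1.31 ± 0.34, edgeR adjusted p = 0.00854). The 8 granulosa markers summed to 2608 to 4880 CPM over all libraries, most of it Cyp11a1, a steroid-making enzyme at 1863 to 4419 CPM that rose after Foxl2 siRNA. Lowest of the 8 were Fshr, at 0.215 to 0.948 CPM, and Cyp19a1, at 0.0385 to 3.89 CPM. After Foxl2 siRNA 2 of the 8 rose and 2 fell at 30 h (median log2 change -0.51), and 2 rose and 5 fell at 54 h (median -0.99). The 8 include Foxl2, the target of the siRNA itself. At 30 h those that fell were Foxl2 and Cyp19a1, and Foxl2 also counts among the falls at 54 h. In all libraries 5 leukocyte, 5 endothelial and 5 oocyte markers summed to at most 6.64, 14.1 and 4.94 CPM. The 4 theca markers summed to 32.4 to 46.7 CPM, nearly all of it Ptch1 at 32.2 to 46.5 CPM, and 2 of 3 erythroid markers were at 0. The 6 markers of Sertoli cells, the testicular counterpart of granulosa cells, summed to 26.9 to 35.0 CPM in all scrambled libraries, 50.8 to 113.9 CPM after Foxl2 siRNA at 30 h and 66.7 to 263.2 CPM at 54 h. After Esr2 siRNA they summed to 42.5 to 48.7 CPM, above every scrambled library. Of the 5 Sertoli markers tested, 0 were called after Esr2 siRNA, 1 (Sox9) was called higher after Foxl2 siRNA at 30 h, and 5 at 54 h. The 5 markers of ovarian surface epithelium that had values summed to 23.2 to 48.3 CPM with scrambled siRNA and 62.8 to 98.0 CPM with Foxl2 siRNA at 30 h, and to 25.7 to 46.5 CPM with Esr2 siRNA. At 54 h that sum was 35.4 to 76.0 CPM and 239.8 to 332.1 CPM. After Foxl2 siRNA Msln was called higher at both times and Upk3b and Upk1b at 54 h, whereas Krt7 and Krt19 were called at neither time. In a bulk sample fewer cells of a type and less RNA per cell cannot be told apart, and the part of these cell markers in the changes below was not tested.

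After Foxl2 siRNA Fst changed by more than any of the other 9 genes of the axis at both times. After Foxl2 siRNA at 30 h, 0 of the 10 genes rose and 1 (Fst) fell at an adjusted p under 0.05, against a background of 13% of all tested genes called, 6.34% higher and 6.65% lower. The median log2 change of the 10 was -0.02, and that of all tested genes was -0.01. At 54 h 1 rose (Acvr2a) and 2 fell (Fst and Acvr1b), with a background of 38.8% called, 18.5% higher and 20.3% lower and medians of -0.18 and -0.01. After Esr2 siRNA 1 rose (Acvr1c) and 0 fell, with a background of 4.23% called, 1.13% higher and 3.11% lower and medians of -0.05 and -0.01. In the fits of all libraries no fall after Esr2 siRNA passed, with edgeR or with DESeq2. An unadjusted edgeR p under 0.05 was found for 4 of the 10 changes, those of Fst, Inhba, Inhbb and Acvr1c. Among all 14907 tested genes 2625 had such a p. The shares after Foxl2 siRNA were near the background, and the single call after Esr2 siRNA gives no share to compare. A change with time in the response to Foxl2 siRNA (54 h minus 30 h) passed for 0 of the 10 genes in edgeR and DESeq2. The background was 0.00671% of all tested genes in edgeR, and DESeq2 called 210 genes. At an unadjusted edgeR p under 0.05 stood 0 of the 10, beside 1510 of all 14907 tested genes.

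**Figure D1:**
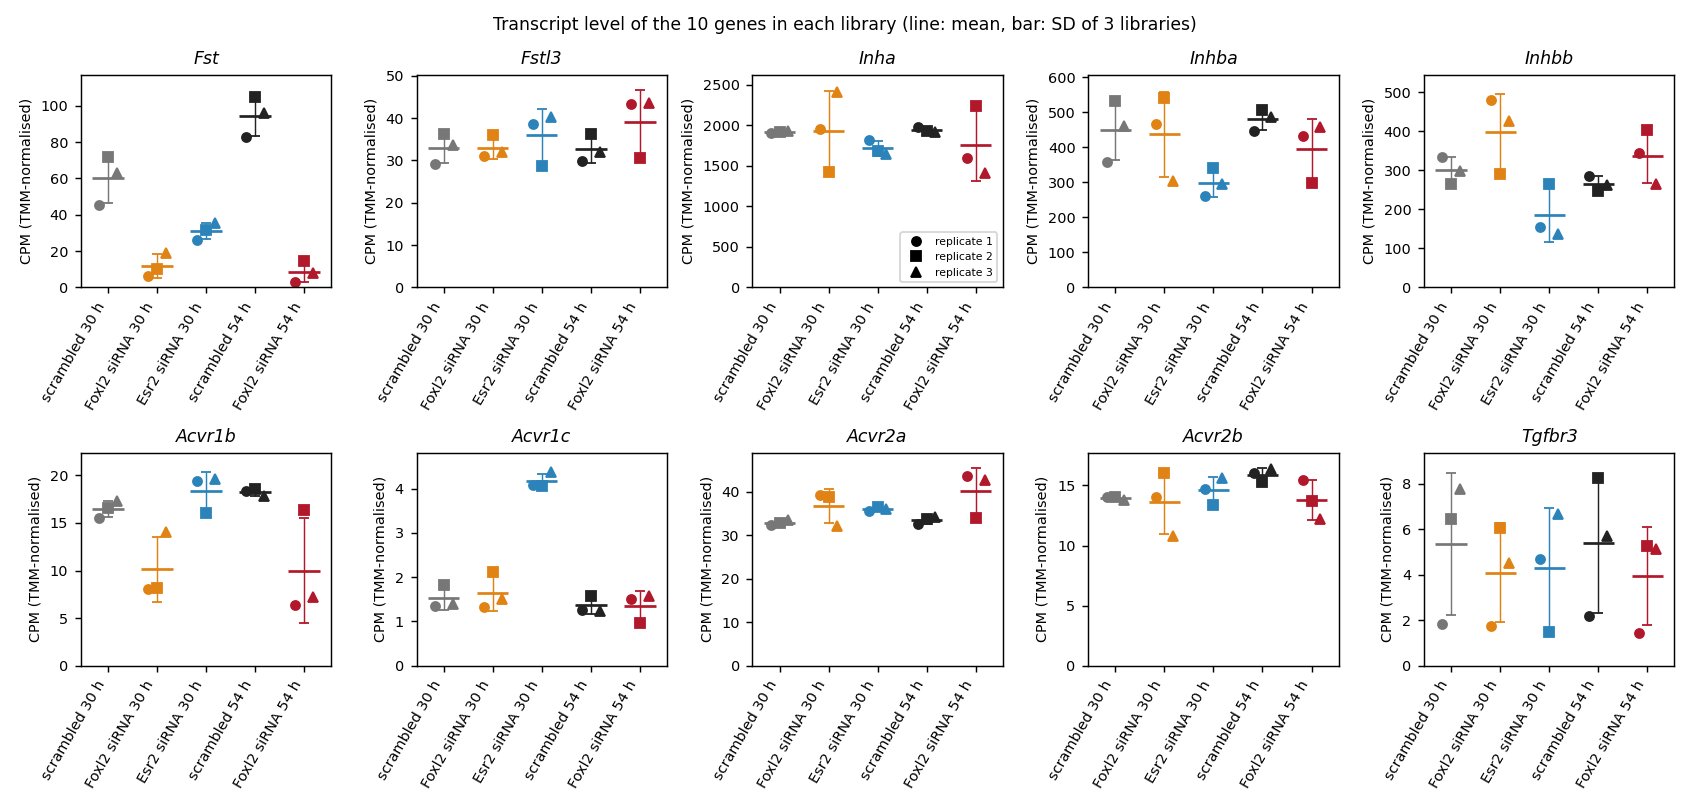
Transcript level of each of the 10 genes, in TMM-normalised CPM (vertical axes, each starting at 0), in the 15 libraries of 5 groups. Symbols mark replicates 1 to 3, lines the mean and bars the SD of 3 libraries. Fst lies between 3.21 and 19.2 CPM in the 6 Foxl2 siRNA libraries and between 45.6 and 104.6 CPM in the 6 scrambled ones, and Acvr1c is highest in the 3 Esr2 siRNA libraries.

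Divided by exon length, the levels in scrambled cells followed the order ligand subunits, antagonists, receptors, with the co-receptor and Acvr1c last. In scrambled cells at 30 h Inha stood at 1297 ± 9.88 CPM per kb (SD, n = 3), far above every other member. Inhba (70.4 ± 13.5 CPM per kb) and Inhbb (70.4 ± 8.05) came next and overlapped, followed by the antagonists Fstl3 (13.5 ± 1.49) and Fst (13.1 ± 2.91), which overlapped too. The type II receptor Acvr2a (5.78 ± 0.108 CPM per kb) lay above Acvr1b (3.73 ± 0.198) and Acvr2b (3.55 ± 0.0450), and the last pair overlapped. Tgfbr3 (0.818 ± 0.479) and Acvr1c (0.164 ± 0.0284) were lowest, without overlap. At 54 h in scrambled cells Fst (20.6 ± 2.41 CPM per kb) stood above Fstl3 (13.4 ± 1.31) without overlap. With Foxl2 siRNA at 54 h Fst was eighth, at 1.89 ± 1.27 CPM per kb, and overlapped Acvr1b above it and Tgfbr3 below it. Exon lengths are those of a GENCODE annotation of the same build, which may not be the one the reads were counted on.

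The 2 antagonists behaved differently. Fst (GRCm38 chromosome 13, 114452290 to 114458951, minus strand) encodes follistatin, which binds activin almost irreversibly. In replicates 1 to 3 its level was 45.6, 71.8 and 62.8 CPM in scrambled cells at 30 h and 6.22, 10.1 and 19.2 CPM after Foxl2 siRNA. The groups did not overlap, and the highest Foxl2 siRNA library was the one that kept the most Foxl2. Fst fell 5.07-fold (log2 -2.34 ± 0.45 SE, edgeR adjusted p = 0.00486). At 54 h scrambled cells held 82.6, 104.6 and 95.9 CPM of Fst, and Foxl2 siRNA cells held 3.21, 14.8 and 7.98 CPM. Fst was thus 10.8-fold lower (log2 -3.43 ± 0.47, edgeR adjusted p = 0.000129), and the highest of the 3 was again the library with the most remaining Foxl2. Fst ranked 534th of all tested genes by p at 30 h and 708th at 54 h. Both falls passed without any single library, with log2 changes of -2.88 to -2.03 at 30 h and -4.06 to -3.05 at 54 h. The difference between the falls at 54 h and 30 h was -1.09 ± 0.62 on the log2 scale and did not pass (edgeR adjusted p = 0.6).

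After Esr2 siRNA Fst stood at 26.4, 31.5 and 35.3 CPM, between the scrambled and the Foxl2 siRNA libraries and overlapping neither. The log2 change against scrambled siRNA was -0.95 ± 0.43, a level 1.93-fold lower, and did not pass (edgeR adjusted p = 0.27). It passed when only the 6 libraries compared were fitted (edgeR adjusted p = 0.0243), where the spread of Fst is not pooled with that of the other groups. Fst was 2.62-fold lower with Foxl2 siRNA than with Esr2 siRNA (log2 -1.39 ± 0.44, edgeR adjusted p = 0.0411). This difference missed the threshold when only these groups were fitted (edgeR adjusted p = 0.0553) and when any 1 of 5 of the 6 libraries was left out (0.0719 to 0.136). Without Foxl2 siRNA replicate 3 it passed (0.0112). Between scrambled libraries Fst was higher at 54 h than at 30 h in each replicate number, with no overlap, a log2 difference of 0.65 ± 0.42 short of the threshold (edgeR adjusted p = 1). The replicate numbers of the scrambled libraries were taken to pair them, although nothing in the labels says that a number marks a shared culture. Replicate 3 at 30 h correlated at 0.173 with its own number and at 0.394 with replicate 2 at 54 h. With the replicate number as a block the log2 change was 0.69 (edgeR adjusted p = 0.964) over all libraries, and 0.67 (edgeR adjusted p = 0.000105) when only the 6 scrambled libraries were fitted. Between the scrambled times 0 of the 10 genes passed in the fit of all libraries without a block, with a background of 0.00671%. DESeq2 called 0 of the 10 as well. An unadjusted edgeR p under 0.05 was found for 0 of the 10, beside 727 of all 14907 tested genes.

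Fstl3 (chromosome 10, 79777272 to 79782630, plus strand), the other activin-binding protein, showed no such fall. It stood at 29.1, 36.3 and 33.8 CPM in scrambled cells at 30 h, 31.1, 36.1 and 31.9 CPM after Foxl2 siRNA and 38.6, 28.8 and 40.3 CPM after Esr2 siRNA. The log2 change after Foxl2 siRNA at 30 h was 0.00 with a 95% interval of -0.33 to 0.33. At 54 h scrambled cells held 29.9, 36.2 and 32 CPM of Fstl3, and Foxl2 siRNA cells held 43.3, 30.5 and 43.6 CPM. The groups overlapped through Foxl2 siRNA replicate 2, and the change of 0.26 ± 0.15 on the log2 scale did not pass (edgeR adjusted p = 0.202). Without that replicate it was 0.41 and passed (edgeR adjusted p = 0.0239). Fstl3 shares 1157 exonic bases with Prss57 on the opposite strand, which had 6 to 22 counts in a library. Fst shares 115 with the antisense gene Gm47040, which had no row among the counts.

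Among the ligand subunits Inha (chromosome 1, 75507077 to 75510366, plus strand), the alpha subunit that makes a dimer an inhibin, held a narrow range in scrambled cells and a wide one after Foxl2 siRNA. It stood at 1899, 1911 and 1928 CPM in scrambled cells at 30 h and 1974, 1930 and 1914 CPM at 54 h. After Foxl2 siRNA it stood at 1958, 1425 and 2407 CPM at 30 h and at 1602, 2239 and 1411 CPM at 54 h. The libraries that kept the most Foxl2 had the highest Inha of their groups, above all scrambled libraries, and the other 4 ranged from 1411 to 1958 CPM. Neither change passed, with log2 values of 0.01 ± 0.17 (edgeR adjusted p = 0.973) and -0.15 ± 0.17 (0.533). After Esr2 siRNA Inha stood at 1820, 1681 and 1643 CPM, below all scrambled libraries at 30 h, and the log2 change was -0.16 ± 0.17 and did not pass (edgeR adjusted p = 0.724).

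Inhba (chromosome 13, 16011851 to 16031621, plus strand) encodes the subunit of activin A. It stood at 359, 531 and 460 CPM with scrambled siRNA at 30 h, 467, 540 and 304 CPM with Foxl2 siRNA, and 260, 342 and 295 CPM with Esr2 siRNA. Its lowest Foxl2 siRNA value at each time was in the library that kept the most Foxl2 (304 CPM at 30 h and 297 CPM at 54 h, where the others were at 431 and 458 CPM). Scrambled cells at 54 h held 447, 505 and 487 CPM. The change after Foxl2 siRNA passed neither at 30 h (log2 -0.04 ± 0.21, edgeR adjusted p = 0.925) nor at 54 h (-0.28 ± 0.21, 0.317). After Esr2 siRNA Inhba did not overlap the scrambled libraries and was 1.5-fold lower, a change that missed the threshold (log2 -0.59 ± 0.21, edgeR adjusted p = 0.152).

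Inhbb (chromosome 1, 119415465 to 119422248, minus strand) encodes the subunit of activin B. It stood at 334, 265 and 299 CPM with scrambled siRNA at 30 h, 479, 290 and 425 CPM with Foxl2 siRNA, and 156, 264 and 137 CPM with Esr2 siRNA. Esr2 siRNA libraries 1 and 3 lay far below the scrambled range, and library 2 lay just under its lowest value. The level after Esr2 siRNA was 1.61-fold lower and did not pass (log2 -0.69 ± 0.24, edgeR adjusted p = 0.137). When Esr2 siRNA replicate 2 was left out the log2 change was -1.03 and passed (edgeR adjusted p = 0.0122). The log2 change after Foxl2 siRNA was 0.41 ± 0.24 at 30 h (edgeR adjusted p = 0.284) and 0.35 ± 0.24 at 54 h (0.271), where the levels were 285, 248 and 262 CPM with scrambled and 344, 403 and 264 CPM with Foxl2 siRNA.

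Set directly against each other at 30 h, the knockdowns differed in Inhbb. It was 2.14-fold higher with Foxl2 siRNA than with Esr2 siRNA, without overlap (log2 1.10 ± 0.24, edgeR adjusted p = 0.00621, or 0.0506 when only these groups were fitted). In this comparison 1 of the 10 genes was higher (Inhbb) and 2 were lower (Fst and Acvr1c) with Foxl2 siRNA, beside a background of 20.4% of all tested genes called, 11.1% higher and 9.34% lower. Inhba was 1.46-fold higher with Foxl2 siRNA and missed the threshold (log2 0.55 ± 0.21, edgeR adjusted p = 0.0838), but passed in DESeq2 (adjusted p = 0.0425) and without Foxl2 siRNA replicate 3 (edgeR adjusted p = 0.0141). The contrasts of both knockdowns with scrambled siRNA share the scrambled libraries, and this direct one does not use them.

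Per kb of exon, Fst was 7.37%, 10.8% and 9.62% of the sum of Inhba and Inhbb in scrambled cells at 30 h and 13.1%, 16.6% and 15.2% at 54 h. After Foxl2 siRNA this share was 0.729%, 1.44% and 2.84% at 30 h and 0.472%, 2.29% and 1.30% at 54 h, far below every scrambled library. After Esr2 siRNA it was 7.44%, 5.93% and 9.82%, which overlapped the scrambled range. Fst, Inhba and Inhbb were each below the scrambled libraries of 30 h in all 3 of these libraries. For Inhbb the closest values were 264 and 265 CPM. None of these falls passed in the fit of all libraries (edgeR adjusted p = 0.27, 0.152 and 0.137). How many of all tested genes separate in the same way was not counted. With Fstl3 added to Fst the share was 18.8% ± 2.42 (SD, n = 3) in scrambled cells at 30 h, 10.1% ± 2.23 after Foxl2 siRNA and 25.0% ± 7.79 after Esr2 siRNA. At 54 h it was 24.7% ± 2.66 and 12.7% ± 1.78. The ratio of Inha to the beta subunits was 9.56, 8.91 and 9.20 in scrambled cells at 30 h, and 16.0, 9.86 and 14.2 after Esr2 siRNA. After Foxl2 siRNA it was 7.15, 6.33 and 11.1 at 30 h and 7.33, 10.8 and 7.15 at 54 h, above the scrambled values (9.77, 9.53 and 9.42 at 54 h) in the libraries with the most remaining Foxl2 and below them in the others. These ratios are of transcripts and were not tested. They say nothing of protein.

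**Figure D2:**
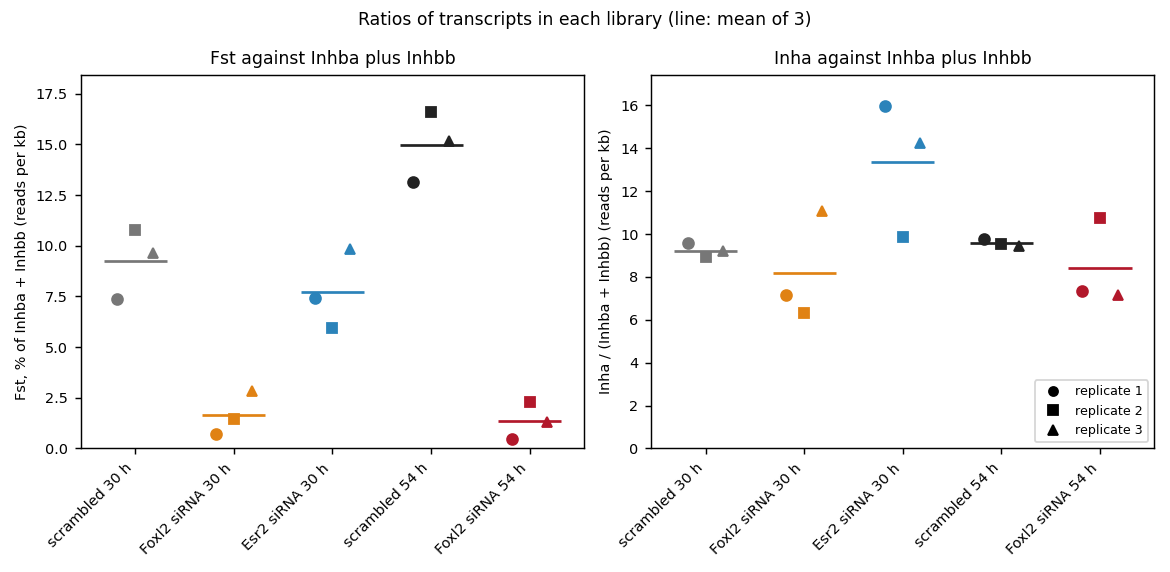
Ratios of transcripts per kb of exon in each library, with symbols for replicates 1 to 3 and a line at the mean of 3. On the left Fst, as a percentage of Inhba plus Inhbb, lies at 0.472% to 2.84% in the Foxl2 siRNA libraries and at 7.37% to 16.6% in the scrambled ones. On the right the ratio of Inha to Inhba plus Inhbb reaches 16.0 and 14.2 in Esr2 siRNA replicates 1 and 3.

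The receptor genes that changed are shown by the bases just before their annotated start, since these windows were searched for the sites of factors known in this tissue. Sequences are from RefSeq (GRCm38.p6), 5′ to 3′ on the gene's strand, in lower case, with a SMAD box in capitals where 1 was found. They end at the last base before the first annotated exon, so those of Acvr1c and Acvr1b, whose RefSeq start lies further in, are shorter than the 250 bases searched.
Acvr1c promoter (chr2:58357896-58358008, minus strand, 113 bases): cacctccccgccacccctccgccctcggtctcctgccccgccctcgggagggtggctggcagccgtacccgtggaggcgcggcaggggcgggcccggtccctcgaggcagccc
Acvr1b promoter (chr15:101173822-101174066, plus strand, 245 bases): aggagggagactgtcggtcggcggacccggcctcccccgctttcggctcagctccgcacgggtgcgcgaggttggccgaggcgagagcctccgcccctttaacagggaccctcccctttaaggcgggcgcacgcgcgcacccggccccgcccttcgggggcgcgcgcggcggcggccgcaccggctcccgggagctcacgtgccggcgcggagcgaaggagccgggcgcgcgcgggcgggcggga
Acvr2a promoter (chr2:48813859-48814108, plus strand, 250 bases): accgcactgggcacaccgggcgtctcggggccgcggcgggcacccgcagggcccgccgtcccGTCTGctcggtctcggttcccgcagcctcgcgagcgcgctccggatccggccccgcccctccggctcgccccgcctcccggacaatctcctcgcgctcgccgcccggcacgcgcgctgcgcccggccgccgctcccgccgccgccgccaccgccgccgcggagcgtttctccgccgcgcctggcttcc
The SMAD box CAGAC, which reads GTCTG on the other strand, lay within the 250 bases before the RefSeq start in Acvr2a, Acvr2b, Fstl3 and Inha (whose window lies wholly inside the gene as GENCODE annotates it), 4 of the 8 members that had a RefSeq window, and in 42.2% of all 32851 windows of this length. The forkhead letters TAAACA (12.0% of windows) and the longer GTAAACA that contains them (3.17%) were in 0 of the 8. So were the oestrogen response element (0.0639%), the steroidogenic factor site CAAGGTCA (1.33%), the cAMP response element TGACGTCA (1.55%) and the GATA letters AGATAA (9.99%), all searched on both strands. Fst and Tgfbr3 were not among the windows. The windows at the outer starts of Acvr2a, Acvr1c and Acvr1b held 82.0%, 79.6% and 78.8% G and C, against a median of 52.4% over all windows. Acvr1c had a window at another RefSeq start inside the gene (chromosome 2, 58324808 to 58325057), with 49.6% G and C and none of these motifs.

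Acvr1c (chromosome 2, 58267453 to 58357895, minus strand), the type I receptor ALK7, was the least abundant member and rose after Esr2 siRNA. It stood at 1.36, 1.83 and 1.39 CPM in scrambled cells at 30 h, from 71, 83 and 83 counts, and at 4.09, 4.07 and 4.37 CPM after Esr2 siRNA, from 247, 208 and 252 counts. The Esr2 siRNA libraries lay close together and far above the 12 others, which ranged from 0.961 to 2.11 CPM. This 2.74-fold rise passed (log2 1.45 ± 0.22, edgeR adjusted p = 0.00204) and passed under every alternative fit, including those without any 1 library (adjusted p of 0.00306 to 0.0173). Among all tested genes it ranked 114th by p. Acvr1c was at 1.33, 2.11 and 1.5 CPM after Foxl2 siRNA at 30 h, with a log2 change of 0.11 ± 0.22 (edgeR adjusted p = 0.784). At 54 h the levels were 1.26, 1.57 and 1.25 CPM with scrambled and 1.5, 0.961 and 1.58 CPM with Foxl2 siRNA (log2 -0.02 ± 0.22, edgeR adjusted p = 0.952). The direct contrast put Acvr1c 2.53-fold lower with Foxl2 siRNA than with Esr2 siRNA (log2 -1.34 ± 0.22, edgeR adjusted p = 0.000948). Acvr1c shares 168 exonic bases with the antisense gene Gm13544, which had 0 to 1 counts in a library.

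Acvr1b (chromosome 15, 101174067 to 101213684, plus strand), the type I receptor ALK4, stood lower after Foxl2 siRNA. Its level was 15.5, 16.6 and 17.3 CPM in scrambled cells at 30 h and 8.09, 8.20 and 14.1 CPM after Foxl2 siRNA. The third value, in the library with the most remaining Foxl2, was just under the scrambled range, and the change did not pass (log2 -0.70 ± 0.30, edgeR adjusted p = 0.14). It passed without that library (log2 -1.02, edgeR adjusted p = 0.0372). At 54 h Acvr1b stood at 18.3, 18.5 and 17.8 CPM with scrambled and 6.40, 16.3 and 7.19 CPM with Foxl2 siRNA, a 1.82-fold fall (log2 -0.86 ± 0.30, edgeR adjusted p = 0.034). When Foxl2 siRNA replicate 2, at 16.3 CPM, was left out the log2 change was -1.42 (edgeR adjusted p = 0.000148). Without any of the other 5 libraries of the contrast the call was lost, with adjusted p of 0.0703 to 0.129, as it was when only these groups were fitted (0.114). Esr2 siRNA left Acvr1b at 19.4, 16.1 and 19.6 CPM (log2 0.15 ± 0.29, edgeR adjusted p = 0.862).

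Acvr2a (chromosome 2, 48814109 to 48903269, plus strand), the more abundant type II receptor, rose slightly after Foxl2 siRNA at 54 h. It stood at 32.5, 33.8 and 34.1 CPM with scrambled and at 43.6, 33.9 and 42.8 CPM with Foxl2 siRNA, where replicate 2 lay inside the scrambled range. The change was 1.20-fold (log2 0.26 ± 0.09, edgeR adjusted p = 0.0392). Leaving out Foxl2 siRNA replicate 2 gave a log2 change of 0.37 (edgeR adjusted p = 0.00131), and the call was lost without any 1 of the other 5 libraries (0.0726 to 0.155) and when only these groups were fitted (0.0888). At 30 h the levels were 32.3, 32.8 and 33.6 CPM with scrambled and 39.2, 38.7 and 32.2 CPM with Foxl2 siRNA, the lowest again in the library with the most Foxl2, and the change did not pass (log2 0.16 ± 0.09, edgeR adjusted p = 0.288). After Esr2 siRNA Acvr2a was at 35.6, 36.5 and 36.0 CPM, above all scrambled libraries at 30 h, but the log2 change was 0.13 ± 0.09 and did not pass (edgeR adjusted p = 0.523). Acvr2a, with 1487 to 2223 counts in a library, shares 446 exonic bases with Orc4 on the opposite strand, which had 2834 to 3768. The library kit marks strand, but whether the counting used it is not given in the sources used here, so reads of the bases that Acvr2a, Fstl3, Fst and Acvr1c share with opposite genes may belong to either gene.

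Acvr2b (chromosome 9, 119402118 to 119434995, plus strand), the other type II receptor, passed in none of the 6 edgeR contrasts. Its level was 13.8 to 14.1 CPM in scrambled cells at 30 h and 15.3 to 16.4 CPM at 54 h, and it was 14, 16 and 10.8 CPM after Foxl2 siRNA at 30 h and 15.5, 13.7 and 12.2 CPM at 54 h. The Esr2 siRNA libraries held 14.7, 13.4 and 15.7 CPM. The 95% interval of the log2 change after Foxl2 siRNA was -0.31 to 0.24 at 30 h and -0.47 to 0.07 at 54 h, and it was -0.20 to 0.34 after Esr2 siRNA.

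**Figure D3:**
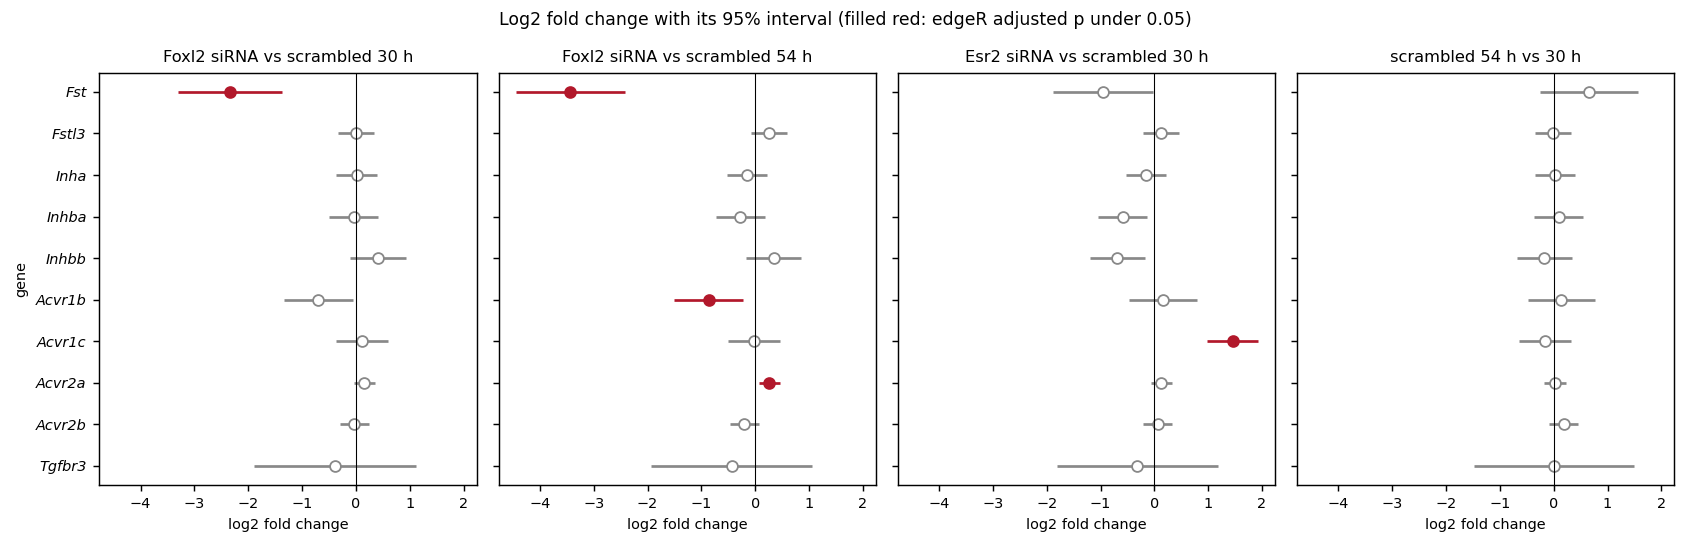
Log2 fold change of each gene with its 95% interval in 4 contrasts, from the edgeR fit of all 15 libraries. Filled red points have an adjusted p under 0.05: Fst after Foxl2 siRNA at 30 h, Fst, Acvr1b and Acvr2a at 54 h, and Acvr1c after Esr2 siRNA. Tgfbr3 has the widest intervals.

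The levels of 4 members were set beside that of Foxl2 in each library, as a description of the spread within the Foxl2 siRNA groups. In replicate 3 at 30 h and replicate 2 at 54 h, with 65.4 and 57.5 CPM of Foxl2, Acvr1b (14.1 and 16.3 CPM) and Acvr2a (32.2 and 33.9 CPM) were near the scrambled values, while in the 4 libraries with 25.2 to 33.8 CPM of Foxl2 they were at 6.40 to 8.20 CPM and 38.7 to 43.6 CPM. Fst was below every scrambled library in all 6. Esr2 was also highest in the same pair of Foxl2 siRNA libraries, at 45.5 and 49.3 CPM, against 15.7 to 29.2 CPM in the other 4. This pattern was seen in the data and was not tested. In deviations from the group means over all tested genes, replicate 3 at 30 h and replicate 2 at 54 h correlated at 0.709. The labels do not say whether these libraries share a culture, so the times may not be independent views of the pattern.

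**Figure D4:**
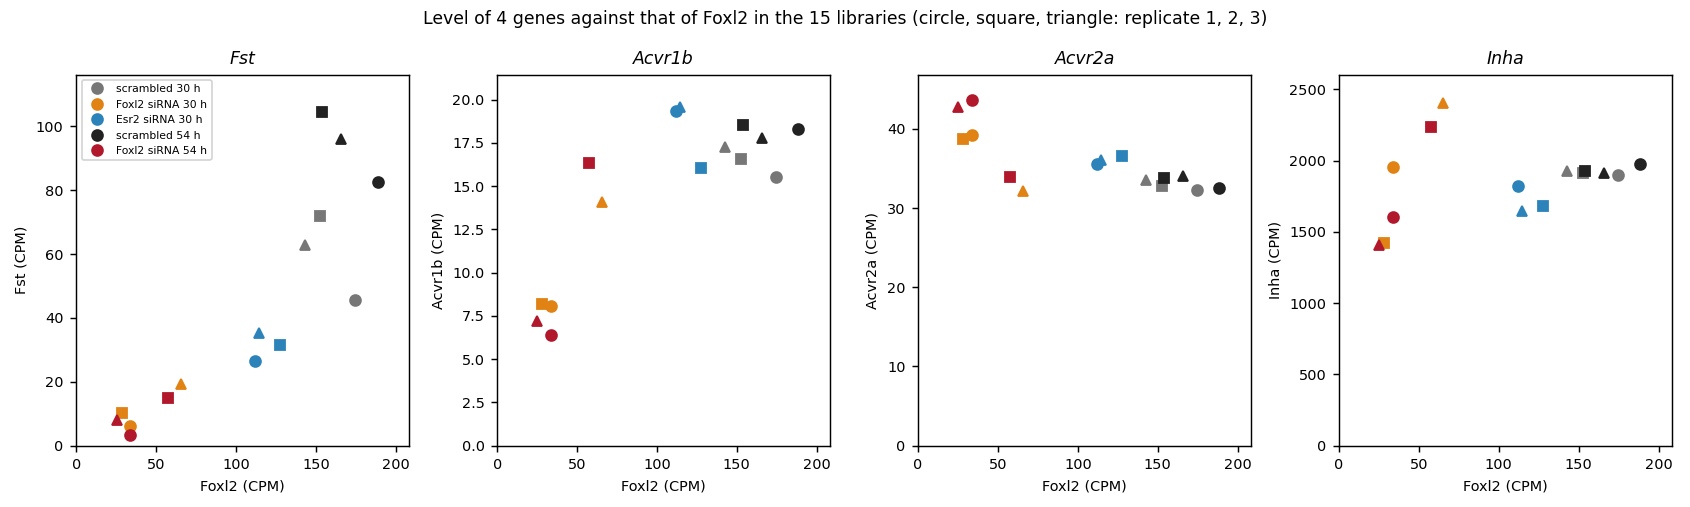
Level of Fst, Acvr1b, Acvr2a and Inha (vertical axes, CPM) against that of Foxl2 (horizontal axes, CPM) in the 15 libraries, coloured by group with a symbol for each replicate number. Acvr1b is at 6.40 to 8.20 CPM in the 4 libraries with the least Foxl2 and at 14.1 CPM or more in all others, and Fst is below 20 CPM in all 6 Foxl2 siRNA libraries.

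Tgfbr3 (chromosome 5, 107106570 to 107289629, minus strand), the betaglycan gene, differed by more within each group than the group means differed from each other. Its level was 1.82, 6.44 and 7.80 CPM in scrambled cells at 30 h, 1.74, 6.04 and 4.51 CPM after Foxl2 siRNA, and 4.70, 1.47 and 6.69 CPM after Esr2 siRNA. The libraries of 54 h held 2.18, 8.25 and 5.73 CPM with scrambled and 1.45, 5.26 and 5.14 CPM with Foxl2 siRNA. The low libraries were replicate 1 in 4 groups and replicate 2 in the Esr2 siRNA group. No contrast passed, and the interval of the log2 change was wide, from -1.89 to 1.12 after Foxl2 siRNA at 30 h and from -1.81 to 1.18 after Esr2 siRNA. The summed level of 5 stroma markers (Dcn, Lum, Pdgfra, Col1a1 and Col1a2, none at 0) was lowest in the same libraries. It was 196, 798 and 554 CPM in scrambled cells at 30 h, 242, 973 and 582 CPM after Foxl2 siRNA and 455, 178 and 750 CPM after Esr2 siRNA, and 262, 972 and 630 CPM with scrambled and 357, 894 and 1279 CPM with Foxl2 siRNA at 54 h. Col1a1 and Col1a2 made up most of this sum in every library. The summed level of the 5 endothelial markers was lowest in the same libraries too, at 2.68 to 4.73 CPM, and was 4.95 CPM or more in the others. The part of either sum in the spread of Tgfbr3 was not tested.

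**Figure D5:**
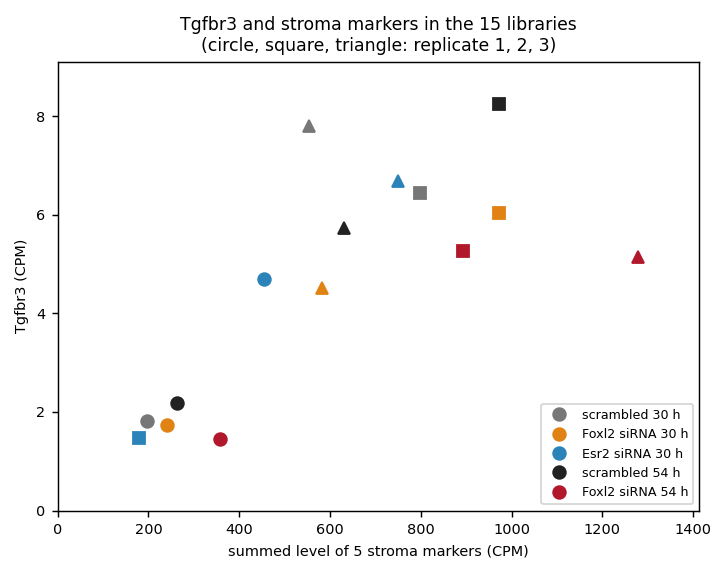
Level of Tgfbr3 (CPM) against the summed level of 5 stroma markers (CPM) in the 15 libraries, coloured by group with a symbol for each replicate number. The 5 libraries with 1.45 to 2.18 CPM of Tgfbr3 are those with the 5 lowest marker sums, 178 to 357 CPM.

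The tested genes whose pattern over the 15 libraries was most like that of a member were found by the root mean square difference of centred log2 CPM over 14906 genes. For Fst, whose own SD over the libraries was 1.51, they were Gja1 (difference 0.301), which encodes the gap junction protein connexin 43, Slc8a1 (0.307), a sodium-calcium exchanger, and Serpine2 (0.321), a protease inhibitor. Gja1 stood at 1124, 1402 and 1338 CPM in scrambled cells at 30 h, 562, 487 and 649 CPM after Esr2 siRNA and 188, 234 and 590 CPM after Foxl2 siRNA. For Acvr1b (SD 0.546) the nearest were Nab2 (0.111), Arhgef7 (0.114) and Smo (0.119), the last being the transducer of hedgehog signals. Smo stood at 139, 128 and 127 CPM in scrambled cells at 54 h and at 55.1, 109 and 57.6 CPM with Foxl2 siRNA. For Acvr2a (SD 0.141) they were Zmpste24 (0.049), Ptpn12 (0.05) and Usp42 (0.05).

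Of 43 further genes of the pathway, 33 were abundant enough to be tested. After Foxl2 siRNA at 30 h 5 rose and 5 fell, and at 54 h 10 rose and 6 fell, with medians of 0.06 and 0.07 on the log2 scale against -0.01 for all tested genes at both times. These are 10 and 16 of 33 called, beside 13% and 38.8% of all tested genes. After Esr2 siRNA 1 rose and 0 fell in edgeR, beside 4.23% of all tested genes called. An unadjusted edgeR p under 0.05 was found for 3 of the 33, beside 2625 of all 14907 tested genes. The one that rose was Furin, a protease that cleaves the precursors of this ligand family. Furin stood at 158, 146 and 154 CPM in scrambled cells and at 213, 199 and 213 CPM after Esr2 siRNA (log2 0.45 ± 0.06, edgeR adjusted p = 0.000927).

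A related protease, Pcsk5, fell after Foxl2 siRNA at both times. It stood at 184, 181 and 176 CPM with scrambled and 97.1, 99.2 and 96.3 CPM with Foxl2 siRNA at the earlier time (log2 -0.89 ± 0.06, edgeR adjusted p = 5.81e-06), and at 191, 208 and 212 CPM with scrambled and 83, 94.5 and 86.3 CPM with Foxl2 siRNA at the later one (log2 -1.21 ± 0.06, edgeR adjusted p = 1.34e-07). Unlike Acvr1b, it was about equally low in the libraries that kept the most Foxl2. Pcsk6, of the same enzyme family, rose at 54 h from a mean of 6.06 to 14.3 CPM (log2 1.24 ± 0.37, edgeR adjusted p = 0.0173). Magi2, a membrane scaffold that binds activin type II receptors, rose at 54 h from a mean of 5.04 to 8.11 CPM (log2 0.69 ± 0.15, edgeR adjusted p = 0.00286). Fstl1, a distant relative of follistatin by sequence, rose at both times, with log2 changes of 0.42 ± 0.12 (edgeR adjusted p = 0.0309) and 0.80 ± 0.12 (0.000205).

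Among the 9 other receptors of the family, 1 rose and 2 fell at 30 h and 1 rose and 3 fell at 54 h, the latter near the 38.8% of all tested genes (13% at 30 h). Bmpr1b, a type I receptor for bone morphogenetic proteins (BMPs), stood at 33.3, 40.1 and 36.9 CPM with scrambled and 7.31, 7.03 and 16.2 CPM with Foxl2 siRNA at 30 h, a fall that passed (log2 -1.85 ± 0.36, edgeR adjusted p = 0.00478). At 54 h its log2 change was -2.66 ± 0.36 (edgeR adjusted p = 0.000133). Bmpr2 fell by 0.35 ± 0.10 at 30 h (edgeR adjusted p = 0.041) and 0.76 ± 0.10 at 54 h (0.000125) on the log2 scale, and Bmpr1a fell at 54 h (-0.72 ± 0.19, 0.0089). Amhr2, the receptor of anti-Müllerian hormone and also a granulosa marker, rose (log2 0.47 ± 0.15 at 30 h, edgeR adjusted p = 0.0494, and 0.72 ± 0.15 at 54 h, 0.00192). The 1 tested ligand of 7 others that use activin receptors, Gdf11, rose by 0.23 ± 0.08 at 54 h (edgeR adjusted p = 0.039).

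Of 13 tested transducers and their regulators 3 rose and 2 fell at 30 h, and 5 rose and 2 fell at 54 h, beside 13% and 38.8% of all tested genes. Smad2, which carries the activin signal, rose by 0.25 ± 0.05 on the log2 scale at 30 h (edgeR adjusted p = 0.0054) and 0.41 ± 0.05 at 54 h (4.24e-05). Smad7, an inhibitory SMAD, stood at 59.5, 61.9 and 58.3 CPM with scrambled and 74.3, 75.3 and 82.9 CPM with Foxl2 siRNA at 30 h, a rise that passed (log2 0.37 ± 0.06, edgeR adjusted p = 0.000907). Its rise at 54 h was 0.57 ± 0.06 (edgeR adjusted p = 9.22e-06). Smad6, the inhibitory SMAD of the BMP branch, fell at both times (log2 -0.58 ± 0.09, edgeR adjusted p = 0.00114, and -0.53 ± 0.09, 0.000543). Tgif1, a repressor that binds SMAD2 and SMAD3, fell by 0.72 ± 0.09 (edgeR adjusted p = 0.000401) and 0.79 ± 0.09 (3.93e-05), and Tgif2 rose at 54 h (0.50 ± 0.13, 0.0103). Zfyve9, which anchors SMAD2 at the membrane, rose by 0.26 ± 0.08 (edgeR adjusted p = 0.0402) and 0.38 ± 0.08 (0.00175). Smad4, the common partner, rose at 54 h by 0.20 ± 0.04 (edgeR adjusted p = 0.0026).

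Between the knockdowns at 30 h, 7 of the 33 were higher and 4 lower with Foxl2 siRNA, beside 20.4% of all tested genes. Higher were Tgfbr1, the type I receptor for TGF-beta (log2 0.46 ± 0.12, edgeR adjusted p = 0.0201, with overlapping groups and no call against scrambled siRNA), Amhr2, Gdf11, Fstl1, Smad2, Smad7 and Zfyve9. Lower were Furin, Pcsk5, Smad6 and Tgif1.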

How the data were processed

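Poly(A) RNA was sequenced as single reads of 75 bases with a kit that marks strand, per the labels. The authors deposited raw read counts per gene, in whole numbers and without normalization. Software named in the submitters' processing notes is bcl2fastq 2.15.0, TopHat2 and DESeq2, with mm10 as the build. How reads were assigned to genes (program, gene models, use of strand) is not given in the sources used here. Of 24582 rows, 92 were ERCC spike-ins (0.105% to 0.352% of a library's counts), which entered neither the library sizes nor any test. In scrambled replicate 1 at 30 h, 15 symbols had become dates and were restored from the order of genes that all libraries share. The deposited table of the whole series served only as a check of the counts, with 45 empty cells and 0 differing ones.

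Changes were tested with edgeR 4.0.16 (R 4.3.3, limma 3.58.1): TMM scaling, filterByExpr, 1 quasi-likelihood fit of 5 group means over 15 libraries, two-sided tests of 6 contrasts, and Benjamini-Hochberg adjustment over 14907 genes, called at an adjusted p under 0.05. The fit had a biological coefficient of variation of 0.148. The SE is the log2 change over the root of the F statistic, and 95% intervals used 13 degrees of freedom. Levels are TMM-normalised CPM. A likeness search used log2(CPM + 0.5). Lengths and positions are from GENCODE M21 (GRCm38, the same build as mm10). Identity of libraries was checked, and 0 pairs were identical. Because nothing in the labels says that libraries of a group are separate cultures, the p-values reflect the spread of libraries, part of which may be technical. Counting precision is set by the depth: 3 counts, the limit that a count of 0 allows, are 0.0504 to 0.0667 CPM.

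Replicate numbers stand in the titles. Deviations of same-numbered scrambled libraries at 30 h and 54 h correlated at 0.722, 0.627 and 0.173, so the numbers were taken to pair these libraries, and the blocked values stand beside that comparison. The other compared groups were not taken as paired. Same-numbered scrambled and Foxl2 siRNA libraries at 30 h also correlated positively throughout, at 0.538, 0.52 and 0.069, so this choice is a matter of degree. Alternatives were RLE and upper-quartile scaling, no filter, a replicate block, a fit of only the groups compared, DESeq2 1.42.0 and leaving out each library, and a block over only the groups compared, which was added after seeing the data. The text names all 10 genes, the pathway genes that passed, and for each member called in a Foxl2 siRNA contrast the 3 genes most like it. The members, the lists and the markers were chosen with earlier results of these data known.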

Additional observations from a re-analysis of the deposited data

How the results depend on the processing

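Over 840 alternative values of the members' changes, 23 no longer passed a threshold that they had passed and 13 newly passed. Of 104 alternative values of the 8 called changes, 81 passed. No called change turned its sign, and 53 uncalled values did, the largest of 0.43 on the log2 scale. Counts of called genes without 1 library ranged from 898 to 3016 for Foxl2 siRNA at 30 h (1936 with all), from 4424 to 6752 at 54 h (5787), from 238 to 1030 for Esr2 siRNA (631), from 1767 to 3647 between the knockdowns (3042), from 1 to 904 for the difference between times (1) and 0 between scrambled times (1). Among the members, counts without 1 library were 1 to 2 lower for Foxl2 siRNA at 30 h, 0 to 2 higher and 1 to 2 lower at 54 h, 0 to 1 lower for Esr2 siRNA, and 1 to 2 higher and 1 to 3 lower between the knockdowns. With only the groups compared, counts of called genes were 1131 for Esr2 siRNA, 1625 between the knockdowns and 206 between scrambled times, and members called were 0 higher and 1 lower for Foxl2 siRNA at 54 h, 1 lower for Esr2 siRNA, and 0 higher and 1 lower between the knockdowns. DESeq2 called 1109 genes for Esr2 siRNA, 210 for the difference between times and 69 between scrambled times, and 2 members higher between the knockdowns. RLE scaling and no filter gave 0 genes between scrambled times. For Foxl2 siRNA at 30 h, upper-quartile scaling gave 1204 genes higher and 799 lower, against 945 and 991.

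With a replicate block over all libraries, 3 genes passed between scrambled times and 0 members were higher for Foxl2 siRNA at 54 h, where Acvr2a had an edgeR adjusted p of 0.057. With the replicate block over only the groups compared, called genes numbered 1586 between scrambled times, 3544 for Foxl2 siRNA at 54 h, 376 for Esr2 siRNA, 814 between the knockdowns and 0 for the difference between times. Members called were then 1 higher (Fst) and 1 lower (Inhbb, log2 -0.17, edgeR adjusted p = 0.0187) between scrambled times, 2 lower for Foxl2 siRNA at 30 h (Fst and Acvr1b), 0 higher and 1 lower at 54 h, 2 lower for Esr2 siRNA (Fst and Inhba), and 0 higher between the knockdowns. Outside the scrambled groups the numbers were not taken to pair the libraries. Same-numbered Foxl2 siRNA and scrambled libraries correlated at 0.538, 0.52 and 0.069 at 30 h and at 0.424, -0.008 and 0.187 at 54 h. Scrambled replicates 1 and 2 at 30 h, and 1 and 3 at 54 h, were closest to the Foxl2 siRNA library of their own number. Same-numbered Esr2 siRNA and scrambled libraries correlated at -0.143, -0.553 and 0.346. Foxl2 siRNA libraries of the same number at 30 h and 54 h correlated at 0.751, -0.308 and -0.364. In none of these comparisons was every library closest to its own number. That also failed for the scrambled pairs, where replicate 3 at 30 h correlated at 0.394 with replicate 2 at 54 h and at 0.173 with its own number. Fewer libraries and fewer residual degrees of freedom make up these fits, and the cause of the other differences was not tested. Depth limits Acvr1c most among the members, with 57 to 252 counts in a library.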

Other observations

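Inhba and Inhbb did not keep 1 ratio between replicates. Per kb of exon the ratio of Inhba to Inhbb was 0.716, 1.33 and 1.02 in scrambled cells at 30 h (replicates 1 to 3) and 1.04, 1.36 and 1.24 at the later time. Foxl2 siRNA gave 0.650, 1.24 and 0.476 at the earlier time and 0.836, 0.491 and 1.15 at the later. The ratio was 1.11, 0.861 and 1.44 after Esr2 siRNA. The lowest values, 0.476 and 0.491, were in the Foxl2 siRNA libraries that kept the most Foxl2.

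The genes most like Tgfbr3 over the 15 libraries, chosen after its values were seen, were Emilin1 (root mean square difference of centred log2 CPM 0.215), an extracellular matrix glycoprotein, Fxyd6 (0.217) and Pgr (0.22), the progesterone receptor, against an SD of Tgfbr3 of 0.79. Those most like Acvr1c, chosen in the same way, were Abhd2 (0.262), Snap25 (0.267) and Id2 (0.271), against an SD of 0.555.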
